A study of Aedes aegypti with 3 samples.

Results

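The AaegL5 genome of the mosquito *Aedes aegypti* consists of chromosomes 1 to 3, a mitochondrial genome and contigs that have no place on a chromosome. FAIRE peaks on these unplaced contigs are described here and set beside the peaks of the chromosomes. All peaks of the deposited AaegL5 list whose sequence name was neither a chromosome nor the mitochondrial genome were taken. They numbered 1322 of 128307 peaks, or 1.03% of the list (exact 95% binomial interval 0.976 to 1.09%), against 126980 peaks on chromosomes 1 to 3 and 5 on the mitochondrial genome. Such intervals cover counting error only.

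The samples were whole wild type embryos of the Liverpool-IB12 strain, 49 to 51 h after egg laying, in 3 replicates of about 150 M reads each by the labels. The study's methods list more sequenced reads than that for each replicate. There was 1 stage, with no treatment and no mutant, and whole embryos hold every embryonic cell type, so that a peak gives a level over all cells together. The authors pooled the replicates before they called peaks and used no control library. The lists therefore hold 1 value per peak. The replicates cannot be compared, so differences below are given without a test.

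FAIRE (Formaldehyde-Assisted Isolation of Regulatory Elements) fixes proteins to DNA with formaldehyde, shears the chromatin and recovers the DNA to which no protein was fixed. Sequenced fragments gather where nucleosomes are sparse, as at active promoters and enhancers. Unplaced contigs are pieces of an assembly that could not be joined to a chromosome, and in insect genomes they are often rich in repeats, in duplicated sequence or in copies of a locus from the other homologue. A peak caller treats each contig as a small chromosome of its own.

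The peak caller, MACS2, gives each peak a fold enrichment and a −log10 p at its summit, the position with most fragments. The 2 values follow from a pileup, the number of reads extended to 550 bp that cover the summit, and from a background, the number expected there. The background is the larger of a genome-wide floor and the local density of reads in a 10 kb window. Both could be worked back from the deposited values, since the pileup has to be a whole number. On AaegL5 the floor came to 37.7 reads, which equals 686 reads in a 10 kb window and implies that MACS2 kept 85.1 M reads. In the list used here every digit 3 is printed as a 5. A pileup and background were recovered for all 1322 contig peaks, with a single solution for 1318, and for 126977 chromosome peaks. Strength, fold, pileup and background below are these recovered values. Start and end were settled for only 302 contig peaks (22.8%), and for 83.4% the possible starts lay within 250 bp of each other, so other positions are given as the likeliest reading.

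The 1322 peaks lay on at least 426 contigs. The list printed 406 distinct contig names, and up to 463 contigs were possible once each 5 was read as a 3 or a 5. The values that follow take 426 contigs, and their intervals leave out the doubt about names. The mean was 3.10 peaks per contig and the median was 2, with quartiles of 1 and 4. A single peak was found on 202 contigs (47.4%, interval 42.6 to 52.3%), at least 5 peaks on 74 contigs (17.4%) and at least 10 peaks on 14 contigs (3.29%). The 10 contigs with most peaks held 298 peaks, or 22.5% of all contig peaks. Contigs without a peak are not in the list and were not counted, so these are numbers per contig with a peak. Chromosomes 1, 2 and 3 held 29656, 52886 and 44438 peaks.

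**Figure D1:**
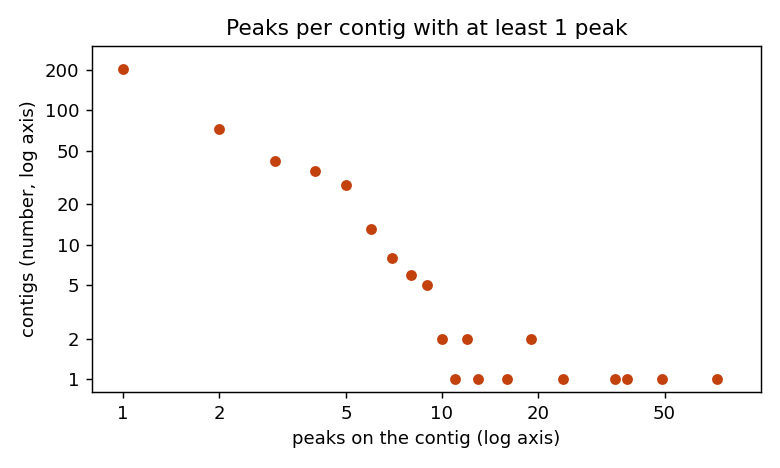
Number of unplaced contigs (vertical axis, log scale) that carried a given number of FAIRE peaks (horizontal axis, log scale), 1 point per number of peaks. 202 contigs stand at 1 peak, and the contig farthest to the right carried 73 peaks.

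Peaks on unplaced contigs were stronger than those on chromosomes, and the difference in −log10 p was larger at higher quantiles. The median −log10 p was 8.60 on unplaced contigs (95% interval of the median 8.18 to 9.17) and 7.54 on chromosomes, a difference of 1.06. The interval treats peaks as independent, though strength also varied between contigs, so it can be too narrow. A contig peak was the stronger in 57.3% of all pairs of a contig and a chromosome peak. At the lower quartile the values were 6.05 and 5.50, at the upper quartile 14.8 and 11.2, and 10% of peaks exceeded 27.4 on unplaced contigs and 17.3 on chromosomes. The strongest value was 298 on unplaced contigs and 256 on chromosomes. The distributions overlapped over most of their range.

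Counts past fixed thresholds showed the same. A −log10 p of at least 5 was reached by 85.2% of contig peaks and 81.9% of chromosome peaks, where 82% of all peaks in the list passed. At 10 or more the shares were 42.5% and 30.9%, with 31.1% in the list. At 20 or more they were 17.3% (229 peaks, interval 15.3 to 19.5%) and 7.58%, with 7.68% in the list, and at 50 or more 3.86% (51 peaks, 2.89 to 5.04%) and 0.896%, with 0.931% in the list. The strongest decile of the list, a −log10 p of 17.4 or more, held 270 contig peaks, or 20.4% (18.3 to 22.7%), and 9.89% of chromosome peaks. By construction 10% of the list passes that limit. The 270 peaks were spread over 140 contigs, and the 5 contigs with most of them held 65 (24.1%).

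**Figure D2:**
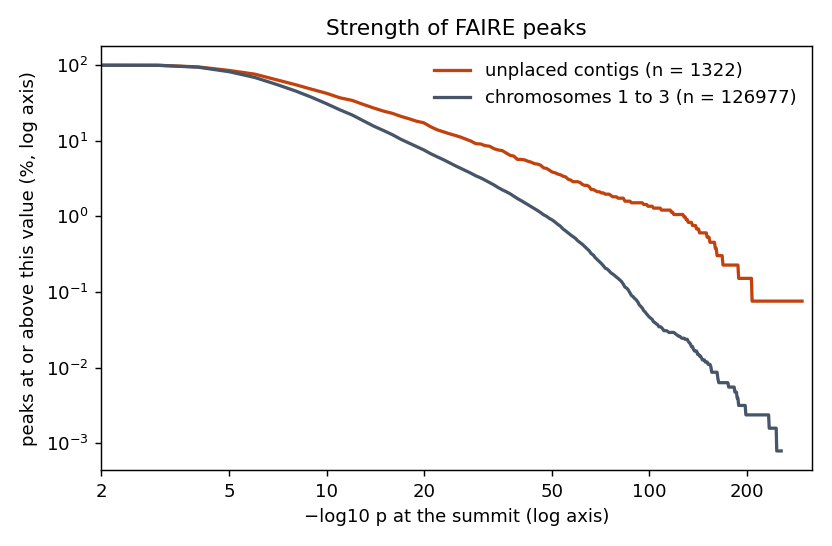
Share of peaks (vertical axis, percent, log scale) with a −log10 p at the summit at or above the value on the horizontal axis (log scale), for 1322 peaks of unplaced contigs and 126977 peaks of chromosomes 1 to 3. The lines lie close together at 5 (85.2% and 81.9%) and part to 3.86% on unplaced contigs and 0.896% on chromosomes at 50.

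Summit fold enrichment was also higher on unplaced contigs. The median was 2.01-fold on unplaced contigs (1.98 to 2.04) and 1.87-fold on chromosomes, and the contig peak had the higher fold in 61.0% of pairs. At least 2-fold enrichment was seen in 50.4% of contig peaks and 36.2% of chromosome peaks (list 36.4%), and at least 3-fold in 9.30% and 3.19% (list 3.25%). At 5-fold and above there were 20 contig peaks (1.51%) on 15 contigs, against 0.0772% of chromosome peaks and 0.0927% of the list. These 20 were 16.8% of the 119 peaks of the list at that level. The highest fold of all lay on a chromosome, at 9.87, while the highest on an unplaced contig was 8.60.

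Contig peaks had fewer reads at the summit in the middle of the distribution, over a lower background. The median pileup was lower on unplaced contigs, at 84 reads (83 to 85) against 89 on chromosomes, and the contig peak had the higher pileup in only 45.0% of pairs. The background stood at the floor in 57.5% of contig peaks (760 peaks, interval 54.8 to 60.2%) and in 29.8% of chromosome peaks, with 30.1% in the list. Its median was 37.7 reads on unplaced contigs, which is the floor, and 44.5 reads on chromosomes. The order turned at the top. A pileup of at least 200 reads was reached by 4.61% of contig peaks and 1.30% of chromosome peaks (list 1.34%), and one of at least 300 by 1.59% (21 peaks on 10 contigs) and 0.107% (list 0.126%). Those 21 peaks were 13.0% of all peaks of the list at that level, and only 2 of them had a background at the floor. Backgrounds of at least 2 times the floor were likewise held by 4.54% of contig peaks and 3.09% of chromosome peaks, with 3.11% in the list.

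Within classes of like pileup, contig peaks of middle height had the lower background. Among peaks with a pileup from 100 to under 150 reads, the median background was 40.6 on unplaced contigs and 56.4 on chromosomes, and the median −log10 p was 18.7 and 11.1. Among peaks with a pileup from 80 to under 100, it was 37.7 and 45.8, with a −log10 p of 10.2 and 8.06. From 56 to under 70 reads both groups had a median background at the floor and a median −log10 p of 4.71. From 150 to under 200 reads the backgrounds were 53.8 and 64.5 and the −log10 p 37.1 and 27.1. At 200 reads or more the median backgrounds were 77.8 and 77.1 and the −log10 p 55.9 and 48.2, while 14.8% of contig peaks and 2.06% of chromosome peaks of that class had a background at the floor. The larger share at the floor among contig peaks was found in each of these classes.

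**Figure D3:**
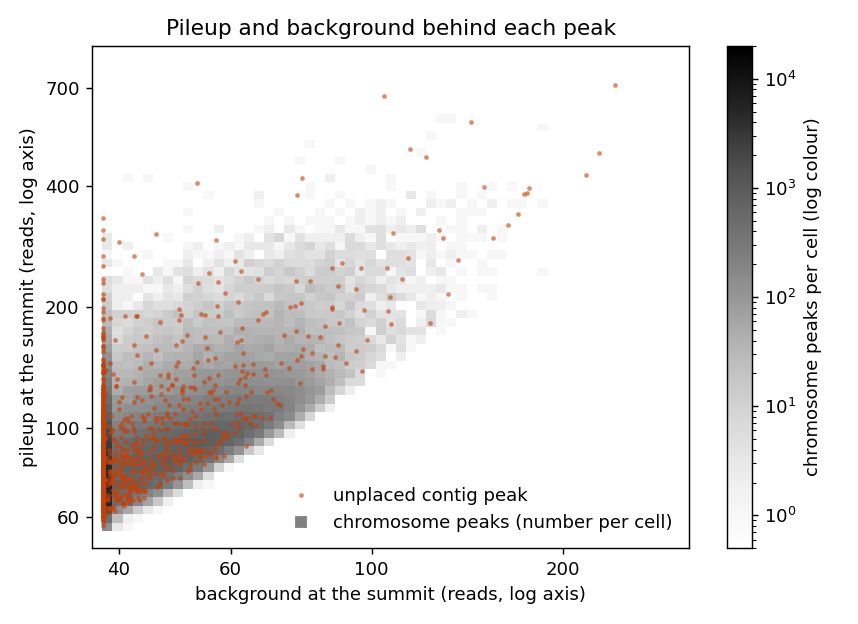
Pileup (vertical axis, reads, log scale) against background (horizontal axis, reads, log scale) at the summit, with 1 point for each of 1322 peaks on unplaced contigs and grey cells shaded by the number of chromosome peaks (log colour). The column of points at the left edge is the floor of 37.7 reads, which 57.5% of contig peaks share, and the points at the upper right reach a pileup of 711 reads.

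Among peaks with the same background, that of the floor, the median of contig peaks was only slightly higher. Among peaks whose background was at the floor, the median −log10 p was 8.50 on unplaced contigs (760 peaks) and 8.18 on chromosomes (37810 peaks), and 17.5% and 9.04% lay in the strongest decile. The difference of 0.33 between these medians was smaller than the 1.06 over all peaks. Median pileups at the floor were 78 and 77 reads, and the lower quartile of the −log10 p was 6.05 in both groups. Among peaks above the floor, where the background was not the same (medians 46.75 and 50.0 reads), the median −log10 p was 9.21 and 7.33. The shares in the strongest decile were 24.4% and 10.2%. With the floor as the background of every peak, the −log10 p follows the pileup alone and restates its order, with medians of 10.6 on unplaced contigs and 12.4 on chromosomes.

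The background varied with the number of peaks on the contig. It was at the floor in 91.1% of the peaks that were alone on a contig and in 66.5% of those on contigs with 2 to 4 peaks. The share was 55.6% at 5 to 9 peaks and 28.7% at 10 or more, with 29.8% on chromosomes. Across the 14 contigs of the last class it ran from 0 to 61.5%. The same classes of scaffolds of AaegL3, an older assembly to which the same reads were aligned, gave 95.2, 73.3, 61.4 and 33.8%. The share also varied along the contig, with 78.2% of the 119 peaks centred within 5 kb of the contig start at the floor, 60.3% at 5 to 20 kb, 63.5% at 20 to 50 kb and 44.6% at 50 kb or more. Among all peaks whose start, and not only their centre, lay 5 kb or more from the contig start, the share was 55.4%. A 10 kb window that runs past the end of a contig gathers no reads there. Lengths of the contigs were not used here, so distances from their far end were not measured, and the part of contig ends in the low background was not tested. 

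Strength did not follow the same order. The median −log10 p was 9.69 for the 202 peaks alone on a contig, 7.89 at 2 to 4 peaks (412 peaks), 8.18 at 5 to 9 (367 peaks) and 10.2 at 10 or more (341 peaks), all above the 7.54 of the chromosomes. The median pileup was 82, 79, 83 and 94 reads. The shares in the strongest decile were 20.3, 17.0, 19.9 and 25.2%, each above the 10% of the list. On AaegL3 scaffolds they were 16.8, 12.3, 13.3 and 9.97%, where the last class holds 121965 of the AaegL3 peaks and is therefore bound to lie near the 10% of its list. In the AaegL5 class of 10 or more peaks, 12 of 14 contigs had over 10% of their peaks in the strongest decile and 2 had none. Without NIGP01001982, the contig that moved this class most, the share was 21.2%. Of the 202 peaks alone on a contig, 134 (66.3%) exceeded the median of the chromosomes and 31 (15.3%) reached a −log10 p of 20. That level was reached by 17.3% of all contig peaks and 7.68% of the list.

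**Figure D4:**
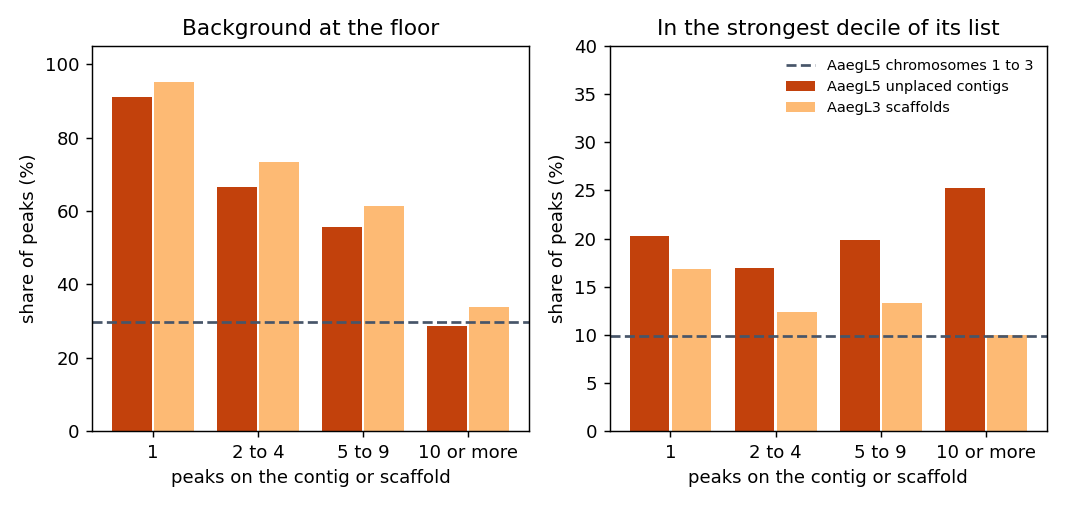
Share of peaks (vertical axes, percent) with a background at the floor (left) and in the strongest decile of their own list (right), by the number of peaks on the contig or scaffold, for AaegL5 unplaced contigs and AaegL3 scaffolds; the dashed line is AaegL5 chromosomes 1 to 3. The left bars fall from 91.1 to 28.7% on unplaced contigs and from 95.2 to 33.8% on AaegL3 scaffolds, and the right bars of unplaced contigs stand between 17.0 and 25.2%.

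The strength of peaks varied between contigs and within them. Taken as a one-way variance component, which allows for the number of peaks per contig, among the 151 contigs with at least 3 peaks, 24.2% of the variance of the log10 of −log10 p lay between contigs, and among the 74 with at least 5 peaks 19.7%. The share between contigs was 27.5% for the pileup and 21.7% for the background in contigs with at least 3 peaks. The median −log10 p of the 74 contigs ran from 4.71 to 169, with quartiles of 6.79 and 10.5, and 46 of the 74 exceeded the value of the chromosomes. Most of the spread was thus found among peaks of the same contig.

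The contig with most peaks, NIGP01001877, held 73 over at least 640 kb. Its median −log10 p was 7.79 and its median pileup 84 reads, near those of the chromosomes, yet it held the strongest peak of the whole AaegL5 list. This peak, read as 547582 to 549052, had a pileup of 670 reads over a background of 104.5, a fold of 6.36 and a −log10 p of 298. A further peak at about 110 kb had 575 reads over 144 (−log10 p 161), and one near 658.6 kb had 418 reads over 77.8 (−log10 p 160). Between 629.5 and 635.5 kb lay 3 neighbouring peaks with pileups of 711, 482 and 426 reads, the first the highest pileup on any unplaced contig. Their backgrounds of 241, 228 and 217 reads were also the highest, so that their −log10 p was 132, 48.0 and 35.6 and their fold 2.94, 2.11 and 1.96. The contig thus joined ordinary peaks to a few that stood far above them, and 15 of its 73 peaks were in the strongest decile.

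NIGP01001982 was different, since most of its peaks were raised. It held 49 peaks up to 229 kb, or 21.4 per 100 kb, and 24 of them lay in the strongest decile. Its −log10 p ran from 4.51 to 48.0 with a median of 16.5, its median pileup was 145 reads and its median background 68.1. Only 10.2% of its peaks had a background at the floor. The peak at about 90.5 kb had the highest pileup of the contig, 341 reads, over a background of 170, and its neighbour near 94.3 kb had 319 over 164. Pileup and background alike were thus above the chromosome medians of 89 and 44.5 reads.

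Of the other large contigs, NIGP01002089 (24 peaks) and NIGP01000304 (16 peaks) also had raised medians, at 15.1 and 41.5, with 10 and 11 peaks in the strongest decile. NIGP01001771 (38 peaks), NIGP01002231 (35 peaks) and NIGP01000727 (19 peaks) had medians of 8.45, 8.18 and 10.2. The contigs printed as NIGP01000495 (19 peaks) and NIGP01000475 (13 peaks), whose names hold digits that could not be settled, had medians of 6.74 and 9.86, and NIGP01000892 (12 peaks) had 10.5. The weakest median in this set, that of NIGP01000495, lay below the median of the chromosomes, and NIGP01000475 had no peak in the strongest decile. Up to the last peak, these 10 contigs carried 4.43 to 21.4 peaks per 100 kb, with NIGP01001982 at the top, while chromosomes 1, 2 and 3 carried 9.54, 11.1 and 10.8. As the distance to the last peak is shorter than a contig, these densities are upper values for contigs, and several of the distances rest on unsettled digits.

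**Figure D5:**
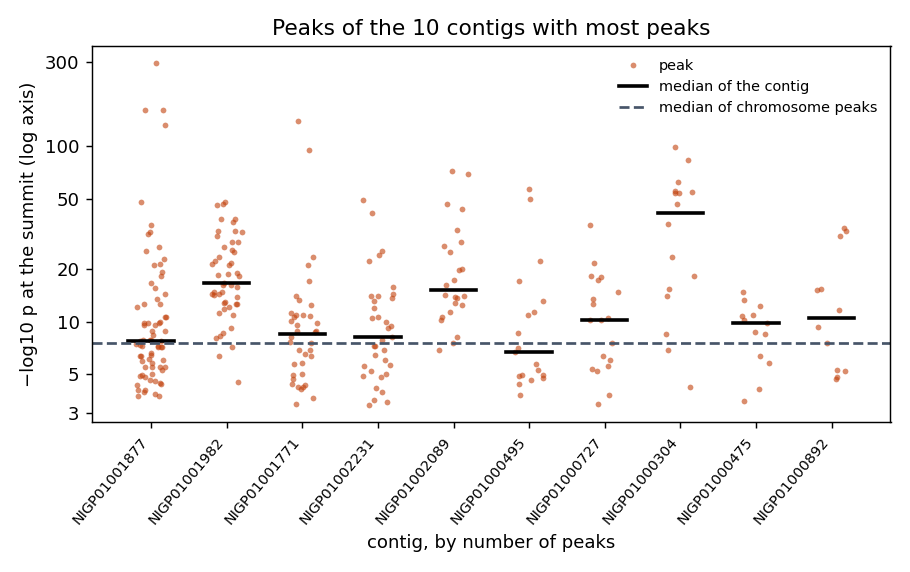
−log10 p at the summit (vertical axis, log scale) of each peak on the 10 unplaced contigs with most peaks, in order of the number of peaks; black bars are the medians of the contigs and the dashed line is the median of chromosome peaks, 7.54. NIGP01000304, NIGP01001982 and NIGP01002089 lie highest, with medians of 41.5, 16.5 and 15.1, and NIGP01000495 lies lowest with 6.74.

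Among contigs with at least 5 peaks, NIGP01000637 had the highest median strength. Its 5 peaks, in order along the contig, had a −log10 p of 188, 14.8, 169, 208 and 70.8, from pileups of 332, 95, 311, 406 and 229 reads. The first 3 had a background at the floor, and the last 2 had 53.1 and 53.3 reads. The folds of 8.60, 2.48, 8.06, 7.52 and 4.24 included the highest of all contig peaks. All but the second thus exceeded 99% of chromosome peaks, whose −log10 p passed 48.0 in 1% of cases.

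NIGP01000304 held strong peaks both over raised backgrounds and over the floor. Its first 4 peaks, within about 8 kb, had pileups of 297, 296, 398 and 305 reads over backgrounds of 129, 155, 150 and 108, and a −log10 p of 36.1, 23.4, 62.5 and 53.8. The next 2, near 51 and 93 kb, reached nearly the same strength, 54.4 and 53.8, with 168 and 167 reads over the floor. Its strongest peak, at about 121 kb, had 229 reads over the floor, a fold of 5.94 and a −log10 p of 98.6, and its weakest, near 102 kb, had 66 reads over 39.9 and a −log10 p of 4.26.

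The remaining contigs with the highest medians were NIGP01001816, NIGP01002188 and NIGP01000036. On NIGP01001816 the 6 peaks had a −log10 p of 35.0, 9.16, 79.6, 20.2, 52.5 and 36.7, with pileups of 192, 140, 260, 120, 165 and 164 reads. On NIGP01002188 the 5 peaks had 6.04, 64.1, 41.9, 35.5 and 28.9, with 3 backgrounds at the floor. On NIGP01000036 the 6 peaks had 19.6, 117, 9.51, 30.0, 11.7 and 49.3, and 5 of them had a background at the floor. The second of these, at 23778 to 25098 of the contig by the only possible reading, had 252 reads over a background of 37.8 and a fold of 6.52. Each of these contigs thus held at least 1 peak near or below the median of all contig peaks beside its strong ones. At the other end, the lowest medians were those of NIGP01000369 (5 peaks, 4.71) and of NIGP01000525 (8 peaks, 4.78), a name with unsettled digits.

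The 20 strongest contig peaks lay on 12 contigs and all belonged to the 100 strongest peaks of the list, of which they made up 20%. Of the 1000 strongest peaks, 47 (4.7%) lay on unplaced contigs, against 1.03% of all peaks. The 20 had a −log10 p of 95.5 to 298, pileups of 229 to 711 reads and folds of 2.94 to 8.60, and 6 of them had a background at the floor. Those 6 had pileups of 229 to 332 reads, and the backgrounds of the other 14 lay above the floor, from 37.8 to 241 reads. Besides the 4 peaks of NIGP01001877 and the 3 of NIGP01000637, 3 came from the contig printed as NIGP01000725, whose 4 peaks within its first 16.6 kb had a −log10 p of 142, 151, 127 and 76.7 and pileups of 289, 495, 471 and 243 reads. A peak alone on its contig, on NIGP01001970 at about 8.9 kb, had 294 reads over the floor, a fold of 7.62 and a −log10 p of 153. The peak of NIGP01000866 at 10085 to 11194, settled by a single reading, reached 108. Others with a background at the floor were those of NIGP01000184, with 267 reads and a −log10 p of 130, and of NIGP01002131, with 234 reads and 103. NIGP01001771 held 2 of the 20, with 303 reads over 45.8 (−log10 p 139) and 241 over 43.6 (95.5), NIGP01000253 held 1 with 380 over 76.3 (135), and the contig printed as NIGP01000045 held 1 with 267 over 42.2 (119).

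Peaks of like pileup could differ in −log10 p where their backgrounds differed. On NIGP01000110, neighbouring peaks at 34147 to 36201 (settled) and at about 36.5 to 40.8 kb had 382 and 394 reads, over backgrounds of 174 and 177, and a −log10 p of 42.1 and 44.4. The other 4 peaks of that contig had 62 to 89 reads and a −log10 p of 3.98 to 9.58. The strongest pair on this contig was thus set apart by reads at the summit and around it alike. By comparison, the peak of NIGP01000253 with 380 reads over a background of 76.3 had a −log10 p of 135.

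The weakest contig peak, on NIGP01001480, had a −log10 p of 2.88 from 57 reads over the floor. The next, the only peak of NIGP01001269 at 4609 to 5284 (settled), had 3.09 from 58 reads over the floor. The one on NIGP01000809 had a −log10 p of 3.21 from 90 reads over a raised background of 63.3. After these, 3 peaks tied at 3.30 with 59 reads over the floor, on NIGP01001727, on NIGP01000080 and on the contig printed as NIGP01001925, whose name holds an unsettled digit. On chromosomes the weakest value was 2.16. Peaks had been called on p, without a limit on q, and every contig peak had a q below 0.05. Set on the list, that limit left the difference in median −log10 p between contig and chromosome peaks at 1.06. The share of the whole list below it is not given here, so this is not a trait of contig peaks in particular.

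Summit position and the median gap differed little, gaps were more spread on unplaced contigs, and width differed among the strong peaks. The median width was about 924 bp on unplaced contigs (899 to 942 bp) and 952 bp on chromosomes, with quartiles of 688 and 1239.5 bp on unplaced contigs and of 705 and 1350 bp on chromosomes. Once weaker peaks, those with a −log10 p under 10, were left out, the median width on unplaced contigs minus that on chromosomes was −219 bp, against −28.5 bp over all peaks. The gap between neighbouring peaks had a median of 5.46 kb on unplaced contigs (896 gaps) and 6.01 kb on chromosomes, and 15.6% and 13.0% of gaps were under 1 kb. Quartiles of the gap were 1.99 and 12.0 kb on unplaced contigs and 2.75 and 10.4 kb on chromosomes. Gaps were taken only within a contig or chromosome. In peaks whose digits were settled, the summit lay at 48.7% of the width on unplaced contigs (118 peaks) and at 49.4% on chromosomes (14235 peaks). Widths and gaps rest on the likeliest readings, which in a trial on AaegL3 gave a median width of 943 bp where the true one was 960 bp.

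Contig peaks could not be assigned to genes, since the RefSeq AaegL5.0 gene table lists genes outside the chromosomes without the name of their contig. The table held 1551 such genes of 19585 nuclear genes (7.92%), a larger share than the 1.03% of peaks, which gave 0.852 peaks per gene on unplaced contigs and 7.04 on chromosomes. Genes outside the chromosomes were shorter as a whole, with a median span of 1512 bp against 4142 bp. Within classes, only protein-coding genes were shorter there. The medians of lncRNA genes were 939 bp outside and 860 bp on chromosomes, and those of pseudogenes 1524 and 1010 bp. All spans summed to 10.1 Mb outside the chromosomes, against 694 Mb on chromosomes. Per Mb of gene span there were 131 peaks on unplaced contigs and 183 on chromosomes. Of the 1551 genes, 1012 were protein-coding, with a median span of 1906 bp against 12319 bp on chromosomes. A further 349 were lncRNA genes, 52 were tRNA genes and 11 were transcribed pseudogenes. The remaining 127 were pseudogenes without that mark, copies of genes that have lost their function, and made up 35.9% of this class in the table. Which of these genes carry a peak is not known from the data used here.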

How the data were processed

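Per the study's methods, the authors trimmed reads (Trimmomatic), aligned them (BWA), filtered alignments on a mapping quality of at least 10 (SAMtools) and pooled the 3 replicates. MACS2 then called peaks on p, with a limit of 0.01, without a control library, with reads extended to 550 bp and a mappable size of 1240 Mb. Tool versions were not stated there. Per peak, the deposited AaegL3 and AaegL5 lists hold a fold (a ratio), the −log10 of p and of q, and a score of 10 times the −log10 p. Without a control, open chromatin is not told apart from sequence of high copy number.

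The AaegL5 list used here holds 0 digits 3. For each peak, the readings of its 5s were kept in which fold and Poisson −log10 p gave a whole pileup and a background at the floor or at whole reads per 10 kb. For 3 chromosome peaks none was found, and these were left out. All 124959 AaegL3 peaks gave pileups within 0.02 of whole numbers. In a trial on AaegL3 with the same replacement, 99.9992% came back with the true pileup and background and 57.2% with the true start and end. Positions, counted from 1, had to keep peaks in order, 550 to 7000 bp wide and at least 97 bp apart.

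Named are the 20 strongest and 5 weakest contig peaks (with a tie), the 10 contigs with most peaks and, among contigs with at least 5 peaks, the 5 with the highest medians. NIGP01000110, NIGP01000369, NIGP01000525 and further peaks of named contigs were chosen after their values were seen. The members and lists were chosen with earlier results of these data known. Intervals are exact binomial or order-statistic intervals at 95%. Those over peaks take no account of peaks that share a contig and can be too narrow. Computations used numpy 2.4.6, scipy 1.17.1, pandas 2.3.3, numba 0.67.0 and matplotlib 3.10.9.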

Additional observations from a re-analysis of the deposited data

How the results depend on the processing

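The difference in median −log10 p (1.06) was 2.81 among peaks of at least 10, 0.33 among peaks at the floor and −1.86 with the floor as the background of every peak. The difference in median fold (0.13) was 0.0258 among peaks at the floor and −0.13 with the floor for every peak. The floor settings were chosen after seeing the data. The floor for every peak removes differences in background by construction and orders peaks by pileup alone, whose medians were 84 reads on unplaced contigs and 89 on chromosomes. Of 1322 contig peaks, 562 reached a −log10 p of 10. The difference in median width (−28.5 bp) was −61 bp among peaks of at least 5 and −219 bp among those of at least 10, and the cause was not tested. With every printed 5 taken as a 5, 23.7% of contig peaks came out at the floor in place of 57.5%, since most values were then no longer those of MACS2. The other 50 settings turned no difference in direction, among them single chromosomes as the comparison, each contig weighted alike and leaving out the contig with most peaks. Counts and gaps did move with a limit on strength. At a −log10 p of at least 5 there were 1126 contig peaks, and the median gap was 6.49 kb against 5.46 kb. At 10 or more the mean was 2.10 peaks per contig against 3.10. Genes on contigs were not run, since 0 contig names matched the gene table. No paired analysis was possible because the replicates were pooled before peaks were called, which also kept single replicates from being dropped.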

Other observations

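Of the 100 strongest peaks of the list, 20 lay on unplaced contigs and 2 were among the 5 mitochondrial peaks. The 3 chromosome peaks for which no pileup was found all carried the same printed fold and −log10 p.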
